A study of Homo sapiens with 42 samples.

Results

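A group of 9 genes is described here, chosen by the measured response to the hairpin sh2: their transcripts moved in the same direction in 3 B-cell acute lymphoblastic leukaemia lines. They are 9 of 57793 named genes in each knockdown table. TLE2, CPT1A, AIM1, NPR1, GCNT1, MPZL1, TBC1D16 and WIPI1 were higher with sh2 in every line, and DPYSL3 was lower. The values that selected the members, sh2 against the non-targeting hairpin, are given below as a description with no test.

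The study altered NSD2 in cultured human leukaemia cells and sequenced total RNA from 42 libraries. In RS4;11, RCH-ACV and SEM, cells carried sh2, sh5 or a non-targeting hairpin (NT), with 3 libraries per arm. The series text names sh2 as the NSD2 knockdown, and sh5 is known from sample titles only. In Reh and 697, cells carried a vector adding mutant NSD2 (EK, with E1099K named in the series title), one adding the wild-type protein (WT) or an empty vector (EV), with 2 libraries per arm in Reh and 3 in 697. All are engineered populations of established lines, so each line stands for 1 leukaemia. The labels give no clone, promoter or time after transduction, and nothing says that replicates were separate cultures, so p-values measure the spread between these libraries, which may be technical.

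NSD2 is the methyltransferase that places the dimethyl mark on lysine 36 of histone H3, a mark of active chromatin that spreads over gene bodies and the space between genes and that opposes the repressive methylation of lysine 27. The members have no single shared function. TLE2 is a Groucho corepressor that transcription factors recruit to silence target genes. CPT1A is the outer mitochondrial membrane enzyme that commits long-chain fatty acids to oxidation. AIM1, now named CRYBG1, encodes a beta-gamma crystallin domain protein that binds actin. NPR1 is the receptor guanylyl cyclase for natriuretic peptides, GCNT1 the enzyme that builds core-2 branches on mucin-type glycans of leukocyte surface proteins, and MPZL1 a transmembrane protein that recruits the phosphatase SHP-2. TBC1D16 is a Rab GTPase-activating protein, WIPI1 a phosphoinositide-binding protein of early autophagosomes, and DPYSL3 a collapsin response mediator protein of growing neurons.

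Levels are in CPM, the usual depth-scaled read count of a gene, on library totals adjusted by TMM factors, which ranged from 0.951 to 1.05 of the library totals. Libraries held 21941718 to 67796769 reads. Each table was normalized separately, so levels set across lines carry that limit. B-lymphoid precursor markers summed to 1356 to 4465 CPM in every library, against at most 392 CPM for T and NK, 66.1 for myeloid, 38.0 for erythroid and megakaryocytic and 192 for stromal and epithelial markers. Myeloid markers summed to 42.9 to 60.9 CPM with sh2 and 50.5 to 66.1 CPM with sh5 in SEM, against 21.2 to 28.4 CPM with NT, with 4 of 8 under 1 CPM in each arm. B-lymphoid markers in SEM summed to 1375 to 1413 CPM with sh2 and 1356 to 1435 CPM with sh5, against 1612 to 1759 CPM with NT, and stromal and epithelial markers to 154 to 161 CPM with sh2 and 143 to 165 CPM with sh5, against 104 to 129 CPM with NT. T and NK markers in SEM summed to 78.05 to 81.8 CPM with sh2, against 86.2 to 102.3 CPM with NT, and the erythroid list to 3.12 to 4.61 CPM with sh2, against 5.604 to 7.8 CPM with NT. In RCH-ACV myeloid markers summed to 12.6 to 18.5 CPM with sh2, against 20.1 to 28.1 CPM with NT, and T and NK markers to 109 to 267 CPM with sh2, against an overlapping 84.4 to 119 CPM with NT. In RS4;11 the erythroid list summed to 10.6 to 16.4 CPM with sh2, against 30.6 to 34.0 CPM with NT, and stromal and epithelial markers to 54.0 to 78.5 CPM with sh5, against 48.2 to 52.8 CPM with NT. In Reh the stromal and epithelial list summed to 37.3 to 43.7 CPM with EK, against 30.3 to 34.8 CPM with EV, and the myeloid list to 17.8 to 19.8 CPM with WT, against 21.2 to 25.6 CPM with EV. The T and NK sums of Reh were 3.93 to 4.57 CPM with EK and 2.522 to 3.803 CPM with WT, against 2.08 to 2.33 CPM with EV. With WT in Reh the B-lymphoid list summed to 4144 to 4212 CPM, against 4227 to 4427 CPM with EV, and the erythroid list to 8.11 to 8.23 CPM, against 6.502 to 7.42 CPM with EV. Every other list and arm overlapped its control. The part of these markers in the members' results was not tested, and in bulk RNA fewer cells of a type and less RNA per cell cannot be told apart. HOXA9 and MEIS1 averaged above 45 CPM in every arm of RS4;11 and SEM.

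Promoter sequences are shown for the member with the largest sh2 change (TLE2), the member with the line-dependent sh5 change (CPT1A), the member whose promoter held the most GC boxes (WIPI1) and the member that fell (DPYSL3). They are the 250 bases before the RefSeq start in GRCh38.p14, at chr19:3047636-3047885 for TLE2, chr11:68844278-68844527 for CPT1A, chr17:68457497-68457746 for WIPI1 and chr5:147510069-147510318 for DPYSL3, all on the minus strand and read 5′ to 3′ along the gene. Capitals mark GGGCGG (the GC box) or CCAAT on either strand, which the CPT1A and DPYSL3 promoters lack.
TLE2: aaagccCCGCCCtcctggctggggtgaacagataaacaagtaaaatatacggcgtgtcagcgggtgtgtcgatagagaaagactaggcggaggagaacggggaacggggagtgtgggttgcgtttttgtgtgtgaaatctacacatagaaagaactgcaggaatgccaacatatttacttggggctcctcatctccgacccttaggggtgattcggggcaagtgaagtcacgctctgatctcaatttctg
CPT1A: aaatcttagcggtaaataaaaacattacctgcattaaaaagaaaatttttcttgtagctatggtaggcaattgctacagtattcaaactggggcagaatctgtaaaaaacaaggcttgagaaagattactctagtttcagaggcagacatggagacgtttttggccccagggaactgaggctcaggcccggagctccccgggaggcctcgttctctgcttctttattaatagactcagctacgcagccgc
WIPI1: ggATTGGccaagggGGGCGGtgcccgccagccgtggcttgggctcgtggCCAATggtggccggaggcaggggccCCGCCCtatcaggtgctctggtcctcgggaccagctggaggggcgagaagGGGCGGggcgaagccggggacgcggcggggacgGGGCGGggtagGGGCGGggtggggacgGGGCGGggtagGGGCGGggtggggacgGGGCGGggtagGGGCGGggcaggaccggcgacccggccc
DPYSL3: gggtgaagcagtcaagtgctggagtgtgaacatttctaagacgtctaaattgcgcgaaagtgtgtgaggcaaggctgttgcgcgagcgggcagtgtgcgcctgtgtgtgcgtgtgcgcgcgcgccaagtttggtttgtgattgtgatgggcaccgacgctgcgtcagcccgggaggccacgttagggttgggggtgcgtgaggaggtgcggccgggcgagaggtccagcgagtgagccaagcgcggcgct
RefSeq promoters were found for 8 of the 9 members, and TBC1D16 had none in the table. GGGCGG was in 4 of the 8, against 42.6% of all 35116 promoters of this length, with 9 copies for WIPI1, 2 each for AIM1 and NPR1 and 1 for TLE2. CCAAT was in 3 (MPZL1, NPR1 and WIPI1), against 32.0% of all promoters. The ETS core CCGGAA was in GCNT1 alone (14.5% of all) and the E-box CAGCTG in WIPI1 alone (4911 of the 35116). None of the 8 held the TATA box TATAAA (10.7% of all promoters), the E-box CACGTG (6.34%), the RUNX core TGTGGT (11.0%) or the cyclic AMP element TGACGTCA (1.65%). Both strands were searched for every motif. CG dinucleotides ran from 7 in CPT1A and 11 in GCNT1 to 30 in AIM1, against a median of 11 over all promoters, and the promoter of DPYSL3 held 25. No motif among those searched was held by all 8 promoters. The RefSeq spans of the members ran from 15.3 kb for NPR1 to 211 kb for AIM1, with a median of 89.7 kb against 30.3 kb over 11265 protein-coding genes tested in all 3 lines, and 8 of the 9 were longer than that median.

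NSD2, listed as WHSC1, was lower in every hairpin library than in every NT library of the same line. In RS4;11 it stood at 155, 157 and 254 CPM with sh2 and 167, 142 and 210.2 CPM with sh5 in replicates 1 to 3, against 289, 329 and 305 CPM with NT. In RCH-ACV it stood at 142, 205 and 252 CPM with sh2 and 151, 226 and 209 CPM with sh5, against 327, 344 and 352 CPM with NT. In SEM the fall was even, with 166, 173 and 179 CPM for sh2 and 132, 146 and 146 CPM for sh5, against 331, 335 and 364 CPM for NT. edgeR's quasi-likelihood test called the SEM change with either hairpin and neither change in RS4;11 or RCH-ACV (adjusted p between 0.0952 and 0.508). Reh held 1831 and 1533 CPM with EK and 1747 and 1637 CPM with WT, against 576 and 581 CPM with EV, and 697 held 2118, 1855 and 1473 CPM with EK and 2313, 1833 and 1689 CPM with WT, against 224, 225 and 160.4 CPM with EV, and NSD2 was called higher in each (adjusted p = 0.0168 and 0.0135 in Reh by edgeR, 6.56e-05 and 2.61e-05 in 697 by limma). In Reh that call was lost in 3 of the 4 fits without 1 EK or EV library and in all 4 without 1 WT or EV library.

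With sh2, 10 of the 14965 genes tested in all 3 lines passed an adjusted p of 0.05 in the same direction in each of them, which is 0.0668% of those genes. The 9 members are among them, and the tenth is the homeobox gene HMX3, which is not a member and was named after its values were seen. The share of all tested genes called with sh2 was 1.67% in RS4;11, 1.37% in RCH-ACV and 27.9% in SEM. The members nearest the threshold were WIPI1 and MPZL1, with a largest adjusted p over the lines of 0.0423 each. Just outside lay ABHD4, a lipase of N-acyl phospholipids, at 0.0544 and GNPTAB, which builds the lysosomal targeting signal on enzymes, at 0.0549, both higher with sh2 in every line. The sh2 calls behind the choice of members were sensitive to the libraries used in RS4;11 and RCH-ACV, and why was not tested. Leaving out 1 library, sh2 called 0 of the 9 in RS4;11 without NT replicate 1, 1 without NT replicate 2 or sh2 replicate 1, 2 without NT replicate 3 or sh2 replicate 2 and 9 without sh2 replicate 3, while the share of all genes called ran from 0.0636% to 8.94%. In RCH-ACV sh2 called 0 without NT replicate 2 or 3, 3 without sh2 replicate 2, 5 without sh2 replicate 1, 7 without NT replicate 1 and 8 without sh2 replicate 3, with shares of 0.0825% to 3.4%. In SEM it called 7 to 9, with shares of 22.4% to 27.6%. Since the rule used this contrast, nothing is read from these calls.

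The questions left by the choice of members are whether sh5 moved them too and whether added NSD2 moved them the other way. The sh5 comparison uses the same NT libraries as the sh2 comparison, so the hairpins are not independent in their controls. Reh and 697 share no library with the rule. Values are given member by member, beginning with the nuclear corepressor.

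TLE2 was almost silent in the NT arms and stood higher with either hairpin. In RS4;11 it stood at 0.912, 0.791 and 0.449 CPM with sh2 and 0.446, 0.296 and 0.305 CPM with sh5, against 0.0924, 0.139 and 0.0365 CPM with NT, where the NT values are 1 to 5 reads. In RCH-ACV it stood at 3.46, 1.77 and 2.11 CPM with sh2 and 1.26, 0.384 and 0.871 CPM with sh5, against 0.343, 0.101 and 0.235 CPM with NT. In SEM it stood at 2.56, 2.98 and 2.42 CPM with sh2 and 0.896, 1.18 and 1.59 CPM with sh5, against 0.494, 0.404 and 0.507 CPM with NT. All sh5 libraries lay above all NT libraries of their line, and all sh2 libraries above all sh5 libraries. The log2 change with sh2 was 2.92 ± 0.47 (SE) in RS4;11, 3.37 ± 0.52 in RCH-ACV and 2.49 ± 0.25 in SEM. With sh5 it was 1.88 ± 0.51 in RS4;11 (adjusted p = 0.164, edgeR), 1.86 ± 0.52 in RCH-ACV (adjusted p = 0.589) and 1.38 ± 0.27 in SEM (adjusted p = 0.00155). With the replicate number as a block the RS4;11 change passed as well (adjusted p = 0.0286).

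CPT1A showed the clearest difference between lines. In SEM it stood at 19.6, 16.2 and 14.2 CPM with sh2 and 28.5, 22.2 and 20.4 CPM with sh5, against 5.05, 3.87 and 3.26 CPM with NT. In RS4;11 it stood at 110.4, 103 and 82.6 CPM with sh2 and 85.1, 78.2 and 60.7 CPM with sh5, against 58.4, 62.6 and 54.9 CPM with NT. In RCH-ACV it stood at 175, 179.5 and 168 CPM with sh2 and 122, 100.7 and 112 CPM with sh5, against 99.2, 100.2 and 95.2 CPM with NT. SEM thus had far less CPT1A RNA than the other lines in its NT arm, and its hairpin arms remained below the NT arms of RS4;11 and RCH-ACV. The sh5 change was 2.55 ± 0.18 in SEM, a 5.85-fold rise (adjusted p = 1.63e-06, edgeR). It was 0.35 ± 0.13 in RS4;11 (adjusted p = 0.35, and 0.00754 with the replicate block) and 0.19 ± 0.11 in RCH-ACV (adjusted p = 1), where the lowest sh5 library was just above the highest NT library. In RS4;11 sh5 overlapped NT, with replicate 3 inside the NT range. With sh2 the changes were 0.75 ± 0.13, 0.83 ± 0.11 and 2.04 ± 0.18 in RS4;11, RCH-ACV and SEM.

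AIM1 had smaller sh5 changes in SEM than in RS4;11 and RCH-ACV. It stood at 30.3, 32.6 and 19.4 CPM with sh2 and 26.5, 28.6 and 25.1 CPM with sh5 in RS4;11, against 9.45, 11.03 and 10.6 CPM with NT. In RCH-ACV it stood at 19.6, 19.6 and 19.02 CPM with sh2 and 19.01, 17.5 and 14.96 CPM with sh5, against 9.66, 7.28 and 6.08 CPM with NT. In SEM it stood at 14.8, 20.4 and 21.2 CPM with sh2 and 8.41, 9.31 and 10.00 CPM with sh5, against 6.97, 8.55 and 7.29 CPM with NT. The sh5 libraries of SEM overlapped the NT libraries, and those of RS4;11 and RCH-ACV did not. The sh5 change was 1.37 ± 0.17 in RS4;11 (adjusted p = 0.00877, edgeR), 1.16 ± 0.19 in RCH-ACV (adjusted p = 0.0993, and 0.0162 with the replicate block) and 0.28 ± 0.14 in SEM (adjusted p = 0.172, and 0.0333 with the block). The sh2 changes were 1.41 ± 0.17, 1.34 ± 0.19 and 1.30 ± 0.14 in the same order of lines. The annotated gene overlaps RTN4IP1 on the opposite strand, and the sources used here do not state whether reads were assigned by strand.

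NPR1, the natriuretic peptide receptor, was near absent from RS4;11 controls. There it stood at 1.41, 2.02 and 0.615 CPM with sh2 and 0.273, 0.404 and 0.375 CPM with sh5, against 0.393, 0.194 and 0.255 CPM with NT, so that sh5 and NT overlapped. RCH-ACV libraries had 18.8, 9.89 and 7.03 CPM with sh2 and 6.26, 5.104 and 6.04 CPM with sh5, against 1.69, 1.92 and 2.56 CPM with NT. SEM libraries had 7.91, 7.81 and 7.06 CPM with sh2 and 7.25, 6.55 and 6.38 CPM with sh5, against 2.88, 4.68 and 6.17 CPM with NT. All hairpin libraries lay above NT in RCH-ACV and SEM, and sh2 replicate 1 of RCH-ACV was well above the other sh2 libraries. The sh5 change was 0.29 ± 0.50 in RS4;11, 1.49 ± 0.34 in RCH-ACV and 0.55 ± 0.20 in SEM, with adjusted p of 0.875, 0.345 and 0.0674 (edgeR). With sh2 it was 2.21 ± 0.44, 2.52 ± 0.35 and 0.73 ± 0.20 in that order.

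GCNT1 was abundant in SEM and RS4;11 and scarcer in RCH-ACV. SEM libraries had 113, 109 and 118 CPM with sh2 and 124, 109.7 and 115 CPM with sh5, against 79.01, 74.9 and 79.5 CPM with NT. RS4;11 libraries had 75.9, 70.2 and 55.03 CPM with sh2 and 70.1, 67.5 and 57.5 CPM with sh5, against 41.1, 40.05 and 42.2 CPM with NT. RCH-ACV libraries had 33.97, 23.3 and 29.9 CPM with sh2 and 19.9, 12.7 and 15.2 CPM with sh5, against 13.8, 11.5 and 10.1 CPM with NT. The hairpin and NT libraries were apart in SEM and RS4;11 with either hairpin, and in RCH-ACV sh5 overlapped NT. The log2 change with sh5 was 0.58 ± 0.06 in SEM (adjusted p = 5.66e-06, edgeR), 0.66 ± 0.11 in RS4;11 (adjusted p = 0.025) and 0.43 ± 0.21 in RCH-ACV (adjusted p = 1). With sh2 it was 0.54 ± 0.06, 0.71 ± 0.11 and 1.30 ± 0.21 in SEM, RS4;11 and RCH-ACV. The annotated gene overlaps PRUNE2 on the opposite strand.

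MPZL1 had the highest control level per exon length of the members in RS4;11 and SEM and the smallest sh2 change in each line. It stood at 216, 232 and 183 CPM with sh2 and 189, 213 and 185 CPM with sh5 in RS4;11, against 151, 160.1 and 160.3 CPM with NT. RCH-ACV libraries had 112, 116 and 113 CPM with sh2 and 94.8, 79.1 and 97.3 CPM with sh5, against 77.9, 78.2 and 71.1 CPM with NT. SEM libraries had 181, 182 and 187 CPM with sh2 and 151, 157 and 172 CPM with sh5, against 145, 152 and 149 CPM with NT. The sh5 libraries lay above NT in RS4;11 and RCH-ACV and overlapped it in SEM. The log2 change with sh5 was 0.32 ± 0.09, 0.26 ± 0.12 and 0.10 ± 0.06 in RS4;11, RCH-ACV and SEM, with adjusted p of 0.184, 1 and 0.218 (edgeR). With the replicate block the adjusted p in RS4;11 was 0.00809. With sh2 the changes were 0.42 ± 0.09, 0.58 ± 0.12 and 0.30 ± 0.06.

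TBC1D16 stood above NT in every hairpin library. The SEM libraries held 66.8, 73.2 and 71.4 CPM with sh2 and 52.4, 57.6 and 55.2 CPM with sh5, against 25.5, 29.5 and 27.3 CPM with NT. The RS4;11 libraries held 38.9, 44.5 and 25.6 CPM with sh2 and 22.6, 23.4 and 18.2 CPM with sh5, against 15.1, 13.9 and 13.9 CPM with NT. The RCH-ACV libraries held 34.9, 26.7 and 20.1 CPM with sh2 and 27.3, 19.9 and 27.9 CPM with sh5, against 12.04, 10.6 and 14.5 CPM with NT. SEM was the most even, and sh2 replicate 3 was the lowest sh2 library in RS4;11 and in RCH-ACV. The log2 change with sh5 was 1.00 ± 0.07 in SEM (adjusted p = 1.39e-07, edgeR), 0.58 ± 0.18 in RS4;11 (adjusted p = 0.248, and 0.0211 with the replicate block) and 1.02 ± 0.22 in RCH-ACV (adjusted p = 0.314). With sh2 it was 1.36 ± 0.07, 1.35 ± 0.18 and 1.13 ± 0.22.

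WIPI1 rose with either hairpin in RS4;11 and SEM, while in RCH-ACV the sh5 libraries overlapped NT. The RS4;11 libraries held 5.86, 4.27 and 3.17 CPM with sh2 and 4.16, 3.12 and 4.01 CPM with sh5, against 1.502, 0.776 and 1.57 CPM with NT. The SEM libraries held 6.09, 6.53 and 6.06 CPM with sh2 and 6.78, 5.14 and 7.41 CPM with sh5, against 4.53, 4.55 and 4.67 CPM with NT. The RCH-ACV libraries held 4.68, 5.57 and 5.17 CPM with sh2 and 2.84, 1.61 and 1.74 CPM with sh5, against 2.398, 1.28 and 1.75 CPM with NT. The log2 change with sh5 was 1.56 ± 0.29 in RS4;11 (adjusted p = 0.0389, edgeR), 0.49 ± 0.14 in SEM (adjusted p = 0.0185) and 0.19 ± 0.31 in RCH-ACV (adjusted p = 1). With sh2 it was 1.80 ± 0.29, 0.44 ± 0.14 and 1.4995 ± 0.31 in RS4;11, SEM and RCH-ACV. The annotated gene overlaps ARSG on the opposite strand.

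DPYSL3 was the 1 member that was lower with sh2. SEM libraries had 25.5, 20.6 and 16.3 CPM with sh2 and 61.6, 65.96 and 64.3 CPM with sh5, against 78.8, 76.5 and 85.4 CPM with NT. RCH-ACV libraries had 1.36, 2.87 and 4.55 CPM with sh2 and 3.998, 9.48 and 9.85 CPM with sh5, against 18.5, 22.7 and 23.04 CPM with NT. RS4;11 libraries had 0.284, 0.316 and 0.284 CPM with sh2 and 0.842, 0.727 and 0.609 CPM with sh5, against 0.762, 1.39 and 0.729 CPM with NT. Hairpin libraries lay below NT in SEM and RCH-ACV with either hairpin, and sh5 overlapped NT in RS4;11. The sh5 change was -0.33 ± 0.12 in SEM (adjusted p = 0.0758, edgeR), -1.47 ± 0.40 in RCH-ACV (adjusted p = 0.56, and 0.0384 with the replicate block) and -0.41 ± 0.30 in RS4;11 (adjusted p = 0.658). With sh2 it was -1.94 ± 0.13, -2.86 ± 0.43 and -1.71 ± 0.33 in that order.

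**Figure D1:**
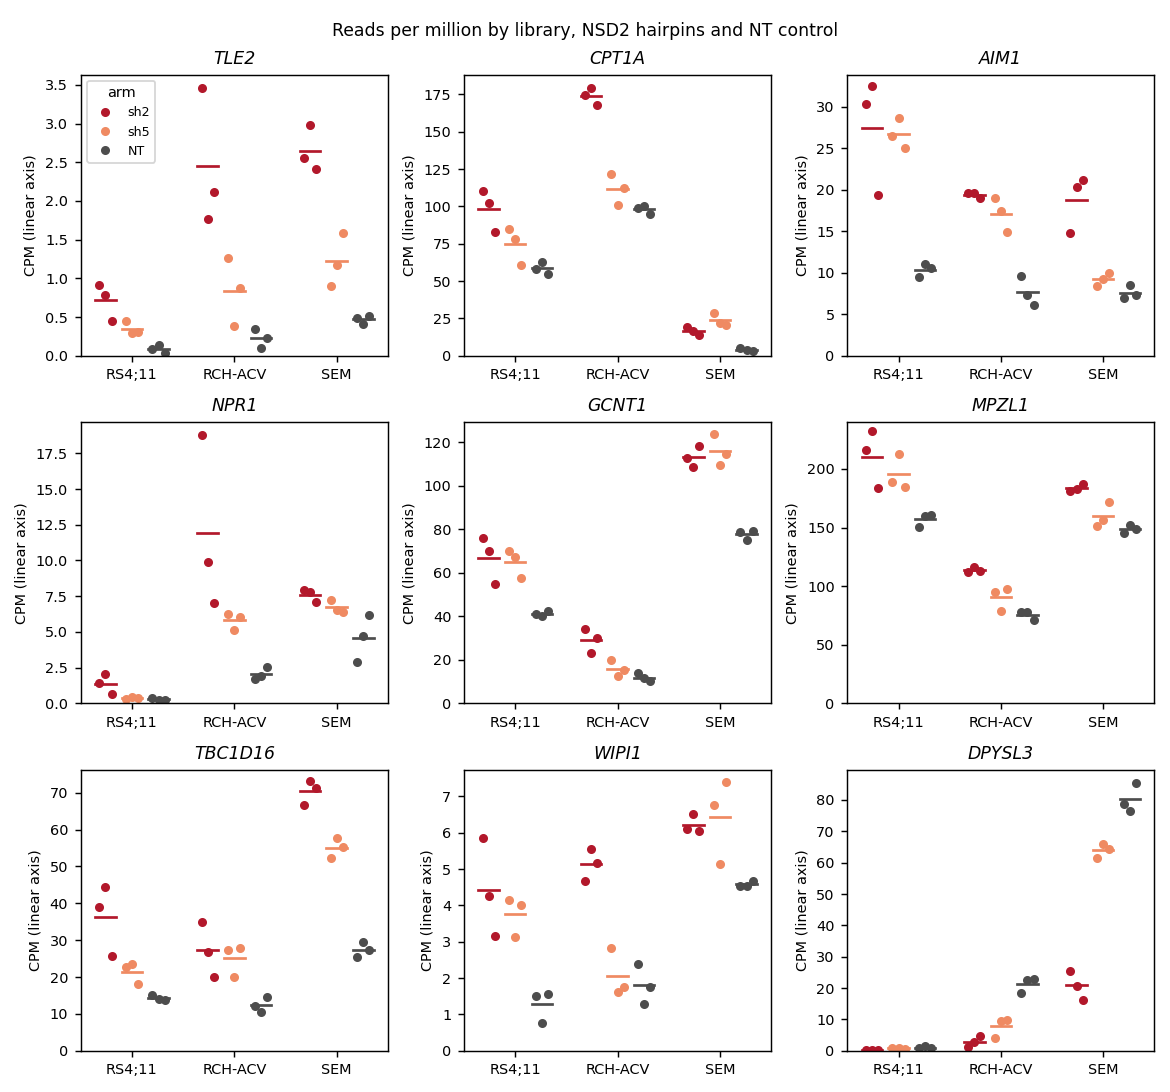
CPM (vertical axis, linear) of each member in the libraries of RS4;11, RCH-ACV and SEM with sh2, sh5 and NT; points are libraries and bars are means of 3. The 8 upper members stand higher with sh2 than with NT in each line, DPYSL3 stands lower, and the SEM level of CPT1A lies far under that of the other lines.

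Counted within lines, sh5 changed between 0 and 5 of the 9 members. In RS4;11 3 of 9 were called higher (AIM1, GCNT1 and WIPI1), where 0.478% of 17165 tested genes were called. In SEM 5 of 9 were called higher (TLE2, CPT1A, GCNT1, TBC1D16 and WIPI1), where 21.3% of 17042 genes were called, a far larger background than in the other lines. In RCH-ACV 0 of 9 were called, where 0.0229% of 17468 genes (4 genes) were called. There 5 members had an unadjusted p under 0.05, as did 706 of the 17468 genes. DESeq2 called 4 members in RCH-ACV, where it called 0.527% of genes. Leaving out 1 library lowered the RS4;11 count to 0 without NT replicate 1 and to 1 without NT replicate 2, NT replicate 3 or sh5 replicate 1. It was 2 without sh5 replicate 2 or 3. The share of all tested genes called fell as well in these fits, to between 0.0289% and 0.429%. With the replicate number as a block the count was 7 in RS4;11, where 5.41% of genes were called, 2 in RCH-ACV, where 0.263% were called, and 6 in SEM, where 32.8% were called. The median log2 change of the 9 members with sh5 was 0.58 in RS4;11, 0.43 in RCH-ACV and 0.55 in SEM, against -0.02, -0.00 and -0.01 over all tested genes.

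The sh5 and NT libraries did not overlap for 6 of 9 members in RS4;11, for 7 in RCH-ACV and for 7 in SEM, against 19.6%, 9.1% and 35.6% of all tested genes. TLE2 and TBC1D16 were above NT with sh5 in all 3 lines.

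Fitted over the 3 lines together, sh5 changed all 9 members: 8 were higher and DPYSL3 was lower, in a comparison that called 5.11% of 20225 genes (edgeR). TLE2 rose 3.28-fold (log2 change 1.71 ± 0.27, adjusted p = 0.000242) and CPT1A 2.05-fold (1.04 ± 0.09, adjusted p = 6.31e-08). AIM1 changed by 0.94 ± 0.11 (adjusted p = 3.93e-06), TBC1D16 by 0.88 ± 0.10 (adjusted p = 9.47e-06) and GCNT1 by 0.57 ± 0.09 (adjusted p = 0.000289). NPR1 changed by 0.79 ± 0.22 (adjusted p = 0.0402), WIPI1 by 0.76 ± 0.16 (adjusted p = 0.00459) and MPZL1 by 0.23 ± 0.05 (adjusted p = 0.0101). DPYSL3 fell 1.66-fold (-0.73 ± 0.18, adjusted p = 0.0188). All p-values are from edgeR and adjusted over all genes. The NPR1 call was lost in 13 of 18 fits that left out 1 library, and the DPYSL3 call without NT replicate 2 of RS4;11 (adjusted p = 0.0951). The NT libraries also chose the members, so these calls share that part of the rule.

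**Figure D2:**
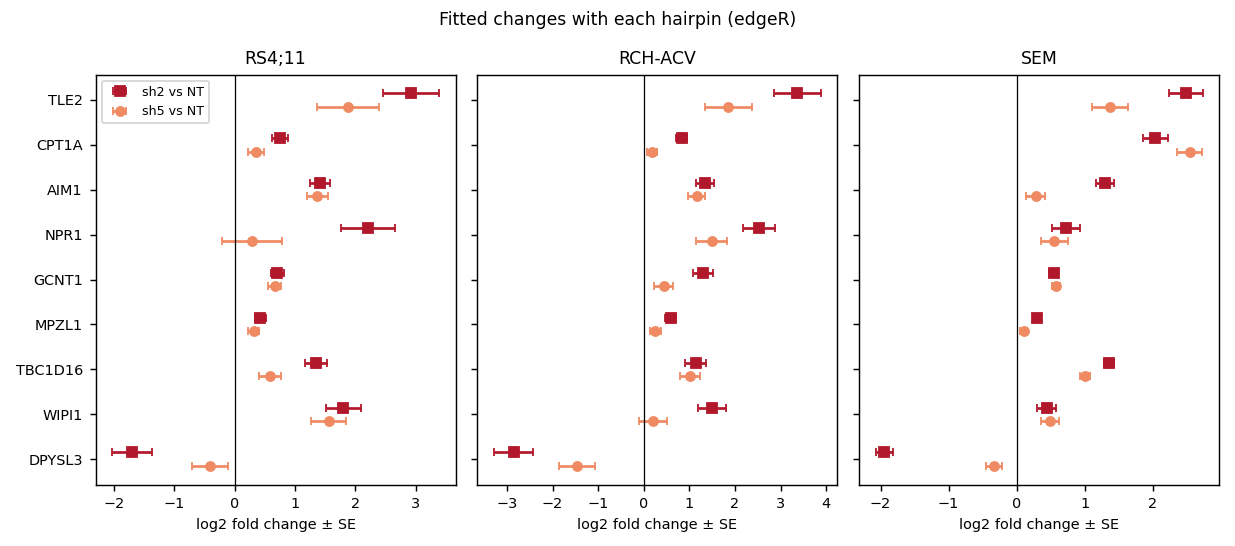
Fitted log2 fold change against NT (horizontal axis, ± SE from edgeR) of each member with sh2 (squares) and sh5 (circles) in each line. All squares and circles of the 8 upper members lie right of zero and those of DPYSL3 left of it, and CPT1A in SEM is at 2.55 with sh5.

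The size of the sh5 response differed between lines for 2 members, in a test that called 1.75% of genes. CPT1A, at 0.35 in RS4;11, 0.19 in RCH-ACV and 2.55 in SEM, had an adjusted p of 7.24e-07 (edgeR, 2 degrees of freedom). AIM1, at 1.37, 1.16 and 0.28 in that order, had an adjusted p of 0.0361, and lost the call in 13 of 18 fits without 1 library. CPT1A kept it in all 18. With the replicate block WIPI1 (adjusted p = 0.0429) and DPYSL3 (adjusted p = 0.0222) passed too, giving 4, where 3.93% of genes were called. For the other members the difference between lines did not pass, which does not show that the lines responded alike.

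The shift of the members in single libraries can be set beside the NSD2 left in them. In RS4;11 the sh2 libraries held 155, 157 and 254 CPM of NSD2, and the median shift of the 8 upper members from the NT mean was 1.28, 1.29 and 0.61 on the log2 scale (0.5 CPM added), so replicate 3 had the most NSD2 and the smallest shift. The sh5 libraries of RS4;11, at 167, 142 and 210.2 CPM of NSD2, had median shifts of 0.67, 0.57 and 0.40. In RCH-ACV the sh5 libraries, at 151, 226 and 209 CPM of NSD2, had median shifts of 0.93, 0.20 and 0.65. DPYSL3 in RCH-ACV shifted by -3.55, -2.69 and -2.11 in sh2 replicates 1 to 3, whose NSD2 stood at 142, 205 and 252 CPM, and by -2.28, -1.13 and -1.08 in the sh5 libraries. The order was not kept everywhere: the upper members shifted by 1.40, 1.20 and 1.30 in the sh2 libraries of RCH-ACV. In SEM sh5 left less NSD2 (132, 146 and 146 CPM) than sh2 (166, 173 and 179 CPM). The upper members there had median shifts of 0.60, 0.51 and 0.60 with sh5 and of 0.85, 1.07 and 1.00 with sh2. The members were chosen because sh2 moved them, which favours larger sh2 shifts, so these shifts cannot rank the hairpins. The fitted SEM change was larger with sh5 for CPT1A (2.55 against 2.04), GCNT1 (0.58 against 0.54) and WIPI1 (0.49 against 0.44). For the other upper members it was larger with sh2. DPYSL3 in SEM shifted by -0.38, -0.28 and -0.32 with sh5 and by -1.63, -1.93 and -2.26 with sh2. With 3 libraries per arm these orders are descriptions with no test.

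**Figure D3:**
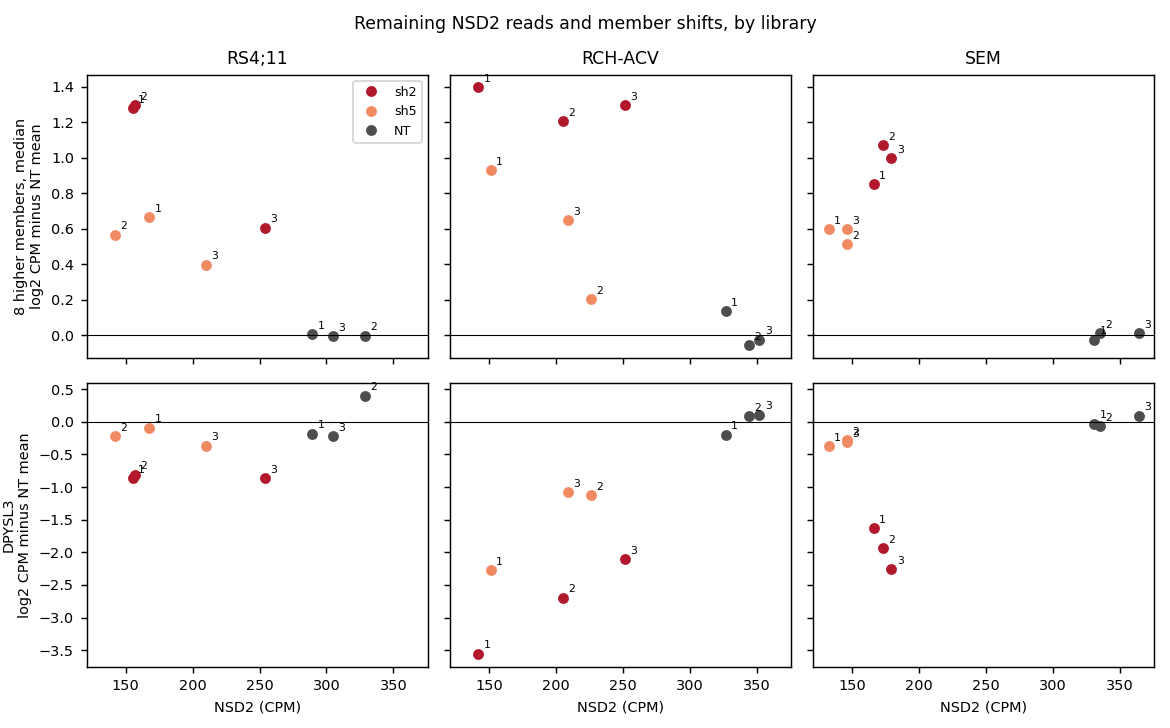
NSD2 CPM (horizontal axis) against the median log2 shift of the 8 upper members from the NT mean (upper row) and the shift of DPYSL3 (lower row), by line; points are libraries with replicate numbers. RS4;11 sh2 replicate 3, at 254 CPM of NSD2, has a median shift of 0.61, under its sister libraries at 1.28 and 1.29.

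Across all 27 knockdown libraries after removing line means, the 8 upper members varied together, with Pearson r between pairs of 0.49 to 0.89 (median 0.77 of 28 pairs), a pattern that the choice of members fixes in part. Removing the mean of each arm takes out the difference between arms but not the spread of NSD2 within them. Part of the chosen response can therefore remain. After that step the r of the upper members with NSD2 ran from -0.795 for TBC1D16 to -0.368 for WIPI1. Between pairs of upper members r ran from 0.01 to 0.79 with a median of 0.37, and all 28 were above 0. Pairs with DPYSL3 had r of -0.50 to 0.03, with a median of -0.41 over 8 pairs. No such values over all gene pairs are set beside these. The libraries of a line share its cells and 1 count table and differ in depth and NSD2 level, so these r values are descriptions. By r over the same 27 libraries, line means removed, each member was set against 9847 genes that passed a filter of 5 CPM. The most alike gene was STX6 for TLE2 (0.92) and MPZL1 (0.88), SEL1L3 for CPT1A (0.92), DHRS3 for AIM1 (0.89) and HMX3 for NPR1 (0.93). It was TNFRSF14 for GCNT1 (0.92) and WIPI1 (0.85), SORT1 for TBC1D16 (0.89) and DCBLD2 for DPYSL3 (0.90). Each is the highest of many and carries no p. HMX3 averaged 27.1 to 38.9 CPM over the arms of SEM, but 0.221 to 2.04 CPM in RCH-ACV and 1.03 to 2.64 CPM in the remaining line. HMX3 also met the sh2 rule that chose the members, so its r with NPR1 is fixed in part by that rule.

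With added NSD2 edgeR called no member in Reh and limma none in 697. In Reh 0 of 8 tested members were called with EK and 0 of 8 with WT, where 0.213% and 0.219% of 15972 genes were called (edgeR). Of the 8, 3 had an unadjusted p under 0.05 with EK and 2 with WT, as did 982 and 793 of the 15972 genes. DESeq2 called 1 member in each, where it called 1.3% of genes with EK and 0.87% with WT. In 697 0 of 7 were called with EK and 0 of 7 with WT by limma, where 0.172% and 0.19% of 16310 genes were called. No member had an unadjusted p under 0.05 there, while 796 genes with EK and 468 with WT did. On the recovered reads edgeR called no member. DPYSL3 was tested in neither line, with at most 2 reads in any library, and NPR1 was not tested in 697, where its mean was under 10 normalized counts. The median log2 change of the tested members was 0.04 with EK and -0.03 with WT in Reh, against 0.01 and -0.01 over all genes, and -0.06 with EK and -0.07 with WT in 697, against -0.02 and -0.00.

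The larger values in Reh were in the same direction as with the hairpins for the corepressor and the mitochondrial enzyme. TLE2 stood at 4.78 and 6.73 CPM with EK and 3.17 and 3.99 CPM with WT in replicates 1 and 2, against 2.105 and 2.92 CPM with EV, so both added-NSD2 arms lay above EV. The log2 change was 1.19 ± 0.28 with EK (adjusted p = 0.274, edgeR) and 0.51 ± 0.29 with WT (adjusted p = 1). CPT1A stood at 178 and 162 CPM with EK and 149 and 159 CPM with WT, against 96.1 and 113 CPM with EV. Its log2 change was 0.70 ± 0.12 with EK (adjusted p = 0.131) and 0.56 ± 0.12 with WT (adjusted p = 0.276), and DESeq2 called it in both arms. MPZL1 had lower values in both arms, at 61.7 and 70.00 CPM with EK and 68.6 and 73.7 CPM with WT, against 81.03 and 86.5 CPM with EV (log2 changes -0.35 ± 0.11 and -0.24 ± 0.11, adjusted p = 0.56 and 1). NPR1 stood at 25.7 and 23.6 CPM with EK and 18.4 and 19.8 CPM with WT, against 23.4 and 26.4 CPM with EV. The other tested members of Reh had log2 changes between -0.12 and 0.25 in either arm: AIM1 averaged 202 ± 8.100 CPM with EK and 207 ± 10.2 CPM with WT, against 207 ± 13.4 CPM with EV (SD, n = 2). TBC1D16 averaged 105 ± 2.04 CPM with EK and 89.3 ± 8.496 CPM with WT, against 96.97 ± 6.85 CPM with EV.

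In 697 every member's arms overlapped. CPT1A stood at 57.8, 43.2 and 49.9 CPM with EK and 53.4, 37.2 and 49.2 CPM with WT, against 65.1, 39.9 and 52.1 CPM with EV. TLE2 stood at 2.01, 2.496 and 1.899 CPM with EK and 1.93, 2.11 and 1.44 CPM with WT, against 3.25, 2.38 and 1.695 CPM with EV. On the log2(normalized count + 1) scale the EK change was -0.18 ± 0.27 for TLE2, with a 95% interval of -0.78 to 0.42, and -0.06 ± 0.21 for CPT1A, with an interval of -0.53 to 0.40. For GCNT1 it was 0.00 ± 0.12 and for WIPI1 -0.13 ± 0.18. Between EK and WT, 0 of 8 members were called in Reh, where 0 of 15972 genes were called (edgeR). In 697 it was 0 of 7 members and 0 of 16310 genes (limma). With no gene called, these counts do not set the members apart. An unadjusted p under 0.05 was held by 2 members and 260 genes in Reh, and by 0 members and 118 genes in 697. DESeq2 called 0 members in Reh, where it called 0.0125% of genes. On recovered reads of 697 edgeR called 0 members and 0 genes.

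**Figure D4:**
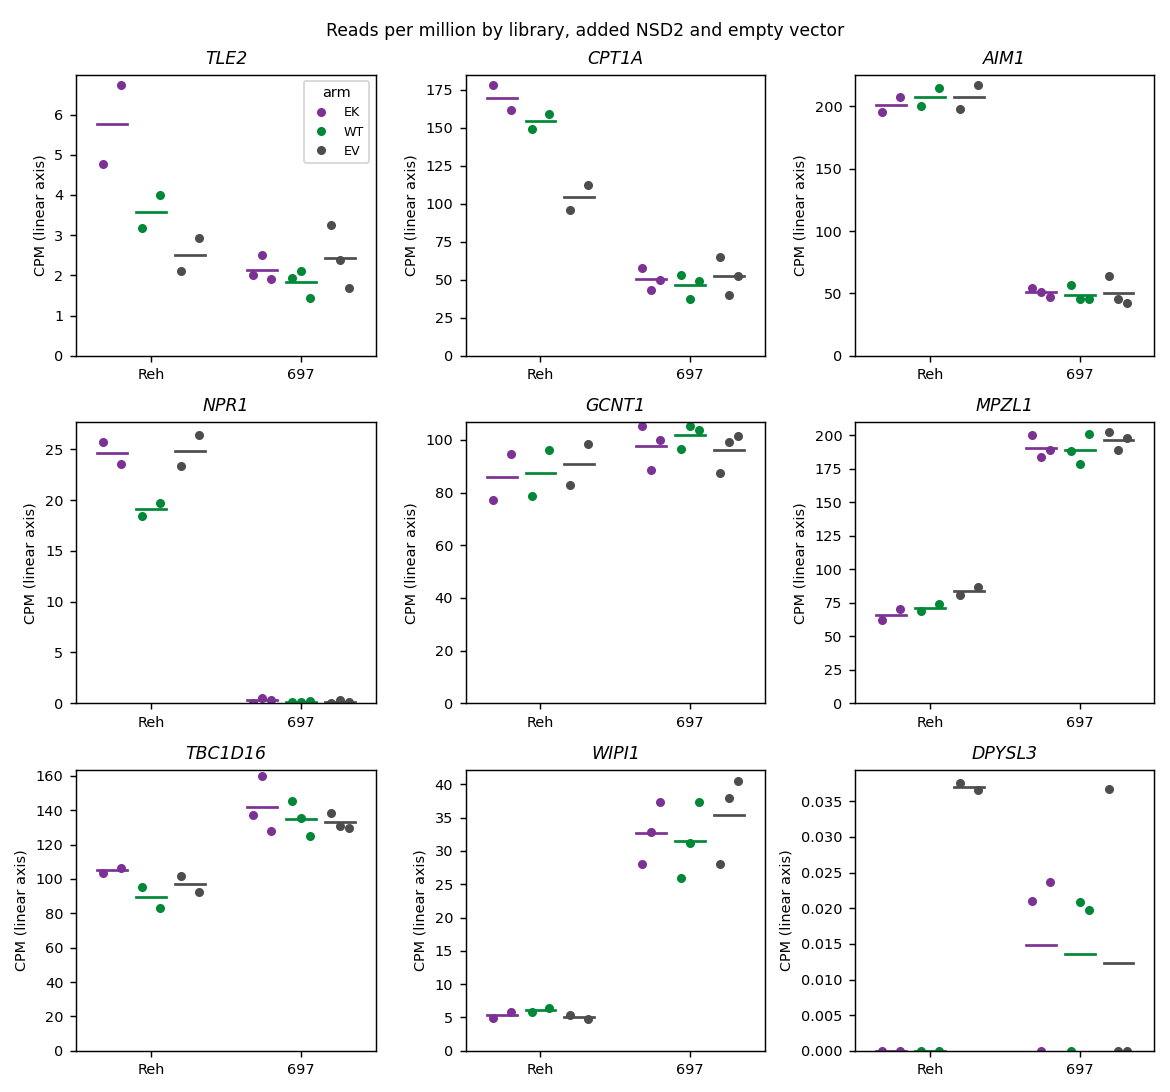
CPM (vertical axis, linear) of each member in Reh and 697 with EK, WT and EV; points are libraries (2 per arm in Reh, 3 in 697) and bars are means. TLE2 and CPT1A in Reh stand above EV in both added-NSD2 arms, and no member's arms separate in 697.

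The control levels put the members in different orders across the lines. CPT1A averaged 104 ± 11.7 CPM in Reh with EV and 98.2 ± 2.65 in RCH-ACV with NT, which overlapped, then 58.6 ± 3.83 in RS4;11 and 52.4 ± 12.6 in 697, which overlapped, and 4.06 ± 0.912 in SEM. TLE2 averaged 2.51 ± 0.578 CPM in Reh and 2.44 ± 0.781 in 697, which overlapped, 0.468 ± 0.0564 in SEM, and 0.226 ± 0.121 in RCH-ACV and 0.0891 ± 0.0512 in RS4;11, which overlapped. AIM1 ran from 207 ± 13.4 CPM in Reh through 50.5 ± 11.7 in 697 to RS4;11, RCH-ACV and SEM, which overlapped at 10.3 ± 0.815, 7.67 ± 1.82 and 7.604 ± 0.838. NPR1 averaged 24.9 ± 2.12 CPM in Reh, 4.57 ± 1.65 in SEM, 2.06 ± 0.453 in RCH-ACV, and 0.281 ± 0.102 in RS4;11 and 0.161 ± 0.129 in 697, the last pair overlapping. These 4 members were highest in Reh, whereas GCNT1, MPZL1, TBC1D16 and WIPI1 were highest in 697. GCNT1 averaged 96.03 ± 7.63 CPM in 697 and 90.7 ± 10.8 in Reh, which overlapped, and was lowest in RCH-ACV at 11.8 ± 1.87. MPZL1 averaged 197 ± 6.92 CPM in 697, 157 ± 5.45 in RS4;11 and 149 ± 3.51 in SEM, with these knockdown lines overlapping, then 83.8 ± 3.87 in Reh and 75.7 ± 4.001 in RCH-ACV. TBC1D16 averaged 133 ± 4.74 CPM in 697, 96.97 ± 6.85 in Reh, 27.4 ± 1.995 in SEM, and 14.3 ± 0.6705 in RS4;11 and 12.4 ± 2.01 in RCH-ACV, which overlapped. WIPI1 averaged 35.5 ± 6.57 CPM in 697, 5.099 ± 0.443 in Reh, 4.58 ± 0.0781 in SEM, and 1.81 ± 0.561 in RCH-ACV and 1.28 ± 0.439 in RS4;11, which overlapped. DPYSL3 averaged 80.2 ± 4.65 CPM in SEM, 21.4 ± 2.51 in RCH-ACV and 0.959 ± 0.3701 in RS4;11, and 2 reads or fewer per library in Reh and 697. Values are mean ± SD, with n = 2 in Reh and n = 3 elsewhere. Per kb of exon (GENCODE 29), MPZL1 stood at 22.2 CPM in RS4;11 and 21.1 in SEM, and TLE2 at 0.0221 and 0.116.

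**Figure D5:**
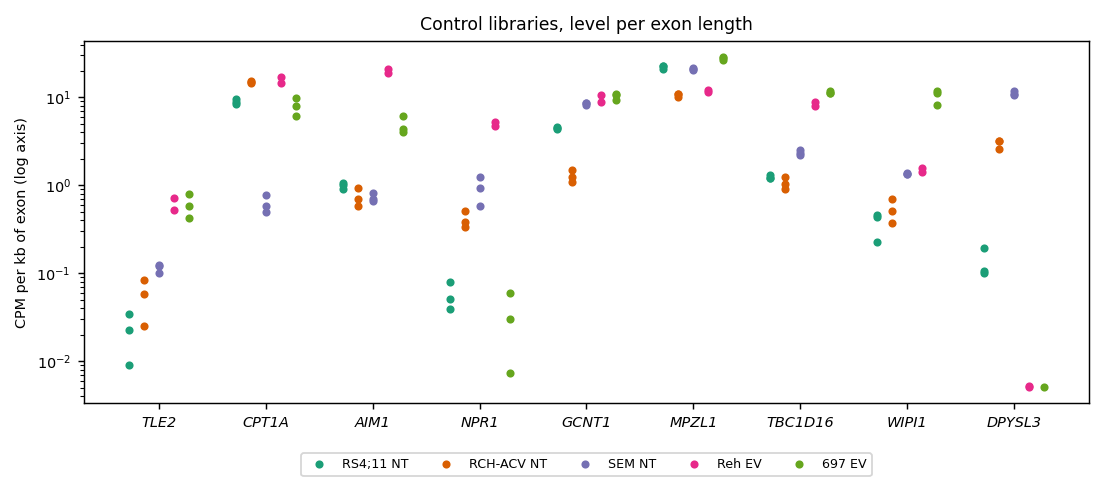
CPM per kb of exon (vertical axis, log) of each member in the control libraries of the 5 lines, NT for RS4;11, RCH-ACV and SEM and EV for Reh and 697; points are libraries, and libraries at 0 reads are not drawn. MPZL1 stays within 1 decade over the lines, and DPYSL3 runs from 11.2 in SEM to almost none in Reh and 697.

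Genes related to the members by family or pathway were called at 21 of 136 tested, where 5.11% of all genes were called. Of 156 genes on 9 lists, the joint sh5 comparison tested 136 and called 21, 12 higher and 9 lower. Of the Groucho corepressors, 1 of 8 tested was called, TLE1. It fell by 0.32 on the log2 scale (adjusted p = 0.00084, edgeR), while TLE2 rose. The TLE1 change with sh5 differed between lines (adjusted p = 0.0085, edgeR). It was -0.71 in SEM (adjusted p = 3.76e-06), -0.0006 in RCH-ACV and -0.27 in the remaining knockdown line (adjusted p = 0.185). The list's median was -0.08. Of the carnitine shuttle and fatty acid oxidation genes 2 of 22 were called, both higher, among them ECHS1, a mitochondrial hydratase (0.18 ± 0.05, adjusted p = 0.0489). CPT1B, CPT1C and CPT2, the closest relatives of CPT1A, had log2 changes of -0.15, 0.06 and 0.01 and did not pass. Among the natriuretic peptide and cyclic GMP genes 4 of 10 were called. GUCY1A3, a subunit of soluble guanylyl cyclase, was higher (0.38, adjusted p = 0.0212), and GUCY1A2, PRKG1 and PDE5A were lower (-1.24, -1.34 and -1.18). In single lines sh5 called these lower genes in SEM only (-1.16, -1.67 and -2.22). GUCY1A3 was called in SEM (1.04) and in 1 other line (0.47), not in RCH-ACV. Outside SEM, sh5 called no other list gene in a single line, so the joint values need not hold in each line. The other receptor cyclase NPR2 was at -0.36 and did not pass (adjusted p = 0.0679).

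Of the genes of mucin-type glycan branching and its carriers 5 of 17 were called. PTPRC (CD45), a main carrier of such glycans, rose by 1.32 (adjusted p = 1.55e-05), CD44 by 0.58 (adjusted p = 0.00129), the sialyltransferase ST3GAL4 by 0.29 and the branching enzyme GCNT2 by 1.16 (adjusted p = 0.00925), and the sulfotransferase CHST2 fell by 0.87. In single lines sh5 called PTPRC and CD44 in SEM only (1.90 and 1.01). By line, GCNT2 averaged 0.21 ± 0.0454 CPM with sh5 in RCH-ACV, against 0.0202 ± 0.0184 CPM with NT (SD, n = 3). It was too low to be tested there. Its log2 change was 0.21 in RS4;11 (adjusted p = 0.853) and 0.26 in SEM (adjusted p = 0.15). Of the myelin protein zero and SHP-2 list 3 of 9 were called: the adaptor GAB1 and the kinase SRC were higher (0.36 and 0.70) and MPZL3 lower (-0.62). Of the TBC-domain proteins and their Rabs 4 of 27 were called, with TBC1D4 and TBC1D14 higher (0.48 and 0.18) and RAB5A and TBC1D7 lower (-0.36 and -0.28). Of the autophagy genes 1 of 29 was called, the cargo receptor SQSTM1, higher by 0.19 (adjusted p = 0.0247), and WIPI2, the nearest relative of WIPI1 on the list, was at -0.02. Of the collapsin response and semaphorin genes 1 of 13 was called, the coreceptor NRP2, which fell by 1.03 (adjusted p = 0.00489), while the relatives CRMP1 and DPYSL2 were at -0.12 and -0.18 and did not pass. The 1 tested beta-gamma crystallin gene, AIM1L, was not called.

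Line by line the same lists gave 7 called of 124 with sh2 in RS4;11, 4 of 130 in RCH-ACV and 62 of 126 in SEM. The shares of all genes called with sh2 were 1.67%, 1.37% and 27.9%. With sh5 the lists gave 1 of 124, 0 of 130 and 50 of 126, where 0.478%, 0.0229% and 21.3% of all genes were called. In RCH-ACV with sh5 DESeq2 called 0 as well, and 4 list genes had an unadjusted p under 0.05, as did 706 of all 17468 tested genes. In RS4;11 the sh2 calls included SLC25A20 (0.55), which moves acylcarnitines into the mitochondrial matrix, beside CPT1A. In SEM with sh5 7 of 19 tested genes of the fatty acid oxidation list were higher and 1 lower, among them ACADVL (0.33), HADHB (0.25) and ACADS (0.37) higher and HADHA (-0.24) lower, where 21.3% of all genes were called. With added NSD2, 0 of the 122 tested list genes were called in Reh with EK or WT by edgeR, and 1 of 122 in 697 with each by limma. That gene was MPZL3, a relative of MPZL1, with 0.781 ± 0.214 CPM with EK and 0.902 ± 0.183 CPM with WT, against 0.149 ± 0.0238 CPM with EV in 697 (SD, n = 3). It rose by 2.19 ± 0.32 with EK (adjusted p = 0.0249) and 2.42 ± 0.32 with WT (adjusted p = 0.0112) on the log2(normalized count + 1) scale.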

How the data were processed

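Total RNA from 42 libraries of 5 leukaemia lines was sequenced. The authors deposited whole-number read counts per gene for RS4;11, RCH-ACV, SEM and Reh. For 697 the deposited values are a signal, gene counts divided by a size factor per library, and whole reads were recovered for 100% of its values within 0.01 of a whole number. The submitters' processing notes name Trimmomatic, STAR, featureCounts and hg19, with no version or strand setting (not given in the sources used here). The knockdown tables each hold 27 genes listed under dates, which were left out (0.2143% to 0.2468% of reads). The raw and the normalized Reh data each hold 3 further columns, for a replicate 3, that match no sample. These 6 columns were not used.

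Counts were fitted by line with edgeR 4.0.16 (R 4.3.3), with TMM scaling, filterByExpr, a robust quasi-likelihood F-test and Benjamini-Hochberg adjustment over all tested genes at 0.05. All 3 arms of a line shared a fit. A joint fit of 27 libraries gave the mean sh5 response and the test between lines. For 697, limma 3.58.1 was used on log2(normalized count + 1) for genes averaging at least 10. CPM values use TMM-scaled library sizes. Fits were tested on simulated data with known changes. The members and gene lists were chosen with earlier results of these data known. Named genes are the members, their family, the list genes past the threshold and the most similar gene of each member. Of the genes on the lists CRYBG3 and ATG101 had no match. Libraries held 21941718 to 67796769 reads, and no replicate pair was as close as sampling noise (chi-square per degree of freedom at least 12.1). Replicate numbers were taken as pairs in RS4;11, SEM, 697 and sh5 with NT in RCH-ACV, where every pair's deviations correlated over 0.1. The labels do not say that a number marks a shared batch. Libraries with different numbers were not compared, so pairing is not established. Alternatives were DESeq2 1.42.0, RLE size factors, other filters and pseudocounts, a replicate block, fits of only the arms compared and leaving out each library. Some list and marker genes are not reported here by name.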

Additional observations from a re-analysis of the deposited data

Results flagged for a closer look

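The response to sh5 differed between RS4;11, RCH-ACV and SEM for CPT1A (adjusted p = 7.241e-07, edgeR F-test over all genes) and AIM1 (adjusted p = 0.0361). CPT1A changed by 2.55 on the log2 scale in SEM, 0.35 in RS4;11 and 0.19 in RCH-ACV. AIM1 changed by 1.37 in RS4;11, 1.16 in RCH-ACV and 0.28 in SEM. Over the 18 fits that left out 1 library, the AIM1 call was lost in 13 and the CPT1A call in 0.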

How the results depend on the processing

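Of 1251 alternative values for single members, 1166 kept their side of the threshold, 42 lost the call, 43 gained it and no called value reversed, while 48 values of members called in neither fit changed sign. The number of members called with sh5 in RS4;11 was 7 with no low-count filter (1.52% of all genes called). It was 1 of 5 tested with at least 5 CPM (0.299%), 7 with the replicate block (5.41%) and 0 to 2 without 1 library (0.0289% to 0.429%). In RCH-ACV it was 5 with no filter (0.507%), 2 with the replicate block (0.263%) and 4 with DESeq2 (0.527%). Without 1 library it was 0 to 0 there (0% to 0.0109%). In SEM it was 4 to 6 without 1 library (15.1% to 22.3%) and in the joint fit 7 to 9 (3.74% to 5.68%). Between lines it was 4 with no filter (2.41%), 4 with the replicate block (3.93%) and 1 to 3 without 1 library (1.19% to 1.91%). In Reh 2 members were called with EK (0.915%) and 1 with WT (0.659%) with no filter, 3 with EK (6.43%) and 2 with WT (3.94%) with the replicate block, and 1 in each with DESeq2 (1.3% and 0.87%), and its 2 pairs per arm cannot establish pairing. NSD2 passed the threshold with sh5 at a log2 change of -0.82 (DESeq2) and -0.83 (only the 2 arms) in RS4;11 and -0.81 (no filter) in RCH-ACV. With sh2 it passed at -0.70 (DESeq2) in RS4;11 and at -0.79 (no filter), -0.81 (replicate block) and -0.76 (DESeq2) in RCH-ACV. Replicate numbers did not pair for sh2 in RCH-ACV, where the deviations of sh2 and NT replicate 3 had r of -0.069. The RCH-ACV block fit for sh5 holds these sh2 libraries too. In Reh with EK NSD2 missed at 1.54 with only the 2 arms. Without 1 library its adjusted p (edgeR) was above 0.05 in 3 of 4 fits with EK (0.0704 to 0.152). With WT it was above 0.05 in 4 of 4 (0.0747 to 0.141). Without 1 library the NSD2 change lay between 1.40 and 1.65 with EK and 1.499 and 1.59 with WT in Reh, and with sh2 between -0.97 and -0.57 in RS4;11 and -0.98 and -0.56 in RCH-ACV. With sh2 DESeq2 called 15 of 124 list genes in RS4;11 (5.47% of all genes) and 9 of 130 in RCH-ACV (6.17%). With sh5 it called 3 of 124 in RS4;11 (1.83%). The cause of these differences was not tested. Low counts limit TLE2, at 1 to 5 reads per NT library of RS4;11, and DPYSL3, at 2 reads or fewer in Reh and 697.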
